A study of Homo sapiens with 4 samples.

Results

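The 42 genes described here are NRF2 antioxidant and detoxification genes: the transcription factor gene NFE2L2, which encodes NRF2, its inhibitor KEAP1, its partner MAFG and 39 genes known as NRF2 targets or as enzymes and pumps of the same defence. They were chosen by name, and all 42 symbols matched an Ensembl gene ID among the 58735 genes counted in every library. The libraries came from A549, an established human lung adenocarcinoma cell line, labelled with the cell type alveolar basal epithelial. The 2 shRALY libraries came from cells infected with a lentivirus carrying a hairpin against RALY, which encodes an hnRNP protein that binds RNA, and the labels give them the genotype RALY knockdown. The 2 shControl libraries received a control lentivirus, with the genotype label WT. All 4 libraries were labelled day 2, so both groups share the virus infection and the time, and the groups hold 1 cell line only. A549 cells are known to carry an inactivating mutation of KEAP1, which both groups share.

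NRF2 is held at a low level in most cells because KEAP1 hands it to a CUL3 ubiquitin ligase for destruction. Oxidants and electrophiles modify KEAP1, NRF2 then accumulates, pairs with a small MAF protein and binds antioxidant response elements near its target genes. The targets make glutathione and NADPH, reduce peroxides, quinones and carbonyls, store iron and export conjugates. In lung cancer cells with mutated KEAP1 the pathway is known to be active without added stress.

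Values below are normalised read counts scaled to library size (CPM), given for replicates 1 and 2 of a group in that order or as mean ± SD (n = 2 a group). Total counts were 18632787 and 16823605 in shRALY replicates 1 and 2, against 17587717 and 16745818 in shControl replicates 1 and 2. RALY itself had 40.9 and 41.5 CPM in shRALY, against 123 and 133 CPM in shControl, a 3.12-fold fall (log2 fold change -1.64, SE 0.11; edgeR adjusted p = 5.85e-11). Of the epithelial markers, the keratin genes KRT8 and KRT18 were abundant, KRT19 was higher at 311 ± 17.4 CPM in shRALY and 95.4 ± 7.39 CPM in shControl (log2 1.71; edgeR adjusted p = 1.35e-11), and EPCAM was at 3.24 ± 0.425 CPM in shRALY and 2.68 ± 0.552 CPM in shControl. The part of these cell states in the results below was not tested. The 6 alveolar type II markers summed to 1.10 to 2.01 CPM in shRALY and 1.64 to 1.84 CPM in shControl, so the surfactant genes that define that cell type were near 0. Immune markers summed to 5.26 to 8.60 CPM in shRALY and 7.09 to 8.22 CPM in shControl, nearly all of it CD14, and CD3E, MS4A1, CD163 and LYZ had no counts. Endothelial markers summed to 0.054 to 0.183 CPM in shRALY and 0.502 to 0.822 CPM in shControl, with KDR at 0. Fibroblast markers summed to 14.7 to 18.0 CPM in shRALY and 19.2 to 19.8 CPM in shControl. Most of the fibroblast sum was COL1A1, at 14.3 ± 1.83 CPM in shRALY and 17.8 ± 0.186 CPM in shControl. In bulk RNA, a change within every cell and a change in a share of the cells cannot be told apart. Whether the replicates were separate cultures is not stated in the labels. The p-values rest on the spread between 2 libraries a group, which may be technical, and on spread that edgeR pools over genes.

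The letters of the antioxidant response element stood upstream of some of the genes, and examples are shown because this element is how NRF2 is known to reach its targets. RefSeq promoter windows (GRCh38.p14) were held for 33 of the 42 genes, as 45 windows. The 250 bases before each RefSeq gene start were searched on both strands for the letters TGACNNNGC, the core of the NRF2 element. The letters were in 12 of the 33 genes (36.4%), against 13.2% of all 27305 genes with a window. By window they were in 13 of 45 (28.9%), against 10.9% of all 35116 windows. One site of each of 7 of these genes follows, read on the strand that gives TGACNNNGC, with that run in capitals and 10 bases on each side:
GPX2 (fell; chr14:64942849-64942877, plus strand): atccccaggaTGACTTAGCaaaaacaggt
GCLM (fell; chr1:93909446-93909474, plus strand): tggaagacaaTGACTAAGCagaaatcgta
KEAP1 (fell; chr19:10502784-10502812, plus strand): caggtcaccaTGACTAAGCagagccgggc
GSTP1 (rose; chr11:67583736-67583764, plus strand): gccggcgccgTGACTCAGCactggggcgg
GSTO1 (rose; chr10:104254656-104254684, plus strand): ggcggagggaTGACTGAGCatttataact
TXNRD1 (did not pass; chr12:104215670-104215698, plus strand): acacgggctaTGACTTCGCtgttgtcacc
ME1 (did not pass; chr6:83431170-83431198, minus strand): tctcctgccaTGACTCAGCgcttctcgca
KEAP1, GSTO1 and TXNRD1 each had 1 more match, with the runs TGACACGGC, TGACACAGC and TGACAAAGC.

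The sites of GSTP1 and ME1 hold TGACTCA, which is also the binding sequence of AP-1 factors. GCLM and KEAP1 share the run TGACTAAGC, and both genes fell. The letters stood upstream of genes that rose, fell and did not pass: of the 12 genes with a match, 2 were higher, 4 lower and 6 did not pass, against 6 higher, 7 lower and 8 not passed of the 21 genes without one. The median log2 fold change was 0.02 with a match and 0.03 without. Sequence outside the windows was not searched, so a gene without a match, NQO1 and GCLC among them, can hold the letters farther away. These counts and medians therefore do not compare genes that have an NRF2 element with genes that lack one. The windows follow RefSeq starts, and other annotated starts of a gene can lie on the far side of a site. TXNRD1, thioredoxin reductase, had 2 windows, each before a different RefSeq start and each with 1 match. The whole of the window that holds the printed site is shown (chr12:104215529-104215778, plus strand), with the same 9 letters in capitals:
TXNRD1 window: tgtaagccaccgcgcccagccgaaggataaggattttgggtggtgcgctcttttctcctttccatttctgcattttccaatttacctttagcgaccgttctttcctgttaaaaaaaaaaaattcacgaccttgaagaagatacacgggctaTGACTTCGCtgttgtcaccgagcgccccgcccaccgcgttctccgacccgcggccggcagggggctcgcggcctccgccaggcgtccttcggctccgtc

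The genes moved in both directions. Of the 42 genes, all 42 had enough counts to be tested, 10 were higher in shRALY, 15 were lower and 17 did not pass edgeR's quasi-likelihood test at a Benjamini-Hochberg adjusted p under 0.05 over the 15912 genes tested. The same test called 41.0% of all tested genes, 20.6% higher and 20.4% lower, and of the members 59.5%, 23.8% higher and 35.7% lower. The counts by role below cover few genes each and stand beside these shares. The members were abundant: 31 were among the 1000 most abundant genes per length in shControl, and their lowest mean there was 6.42 CPM. The part of abundance in the share called was not tested. The members' median log2 fold change was -0.01, as was that of all tested genes. Few members were called at 2-fold or more. None of the 42 was called and at least 2-fold higher, against 6.99% of all tested genes. 1 of the 42, GPX2, was called and at least 2-fold lower, against 6.57% of all tested genes. In all, 20 of the 25 called members changed by less than 1.5-fold, and that share was not counted over all called genes. The lower and upper quartiles of the log2 fold change were -0.37 and 0.21 in the members. Over all tested genes they were -0.39 and 0.37. The part of abundance in the size of the changes was not tested either. The groups did not overlap for 31 of the 42 members (73.8%), against 69.7% of all tested genes. In 15 of these the shRALY libraries were the higher ones, against 34.2% of all tested genes, and in 16 the lower ones, against 35.4% of all tested genes.

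**Figure D1:**
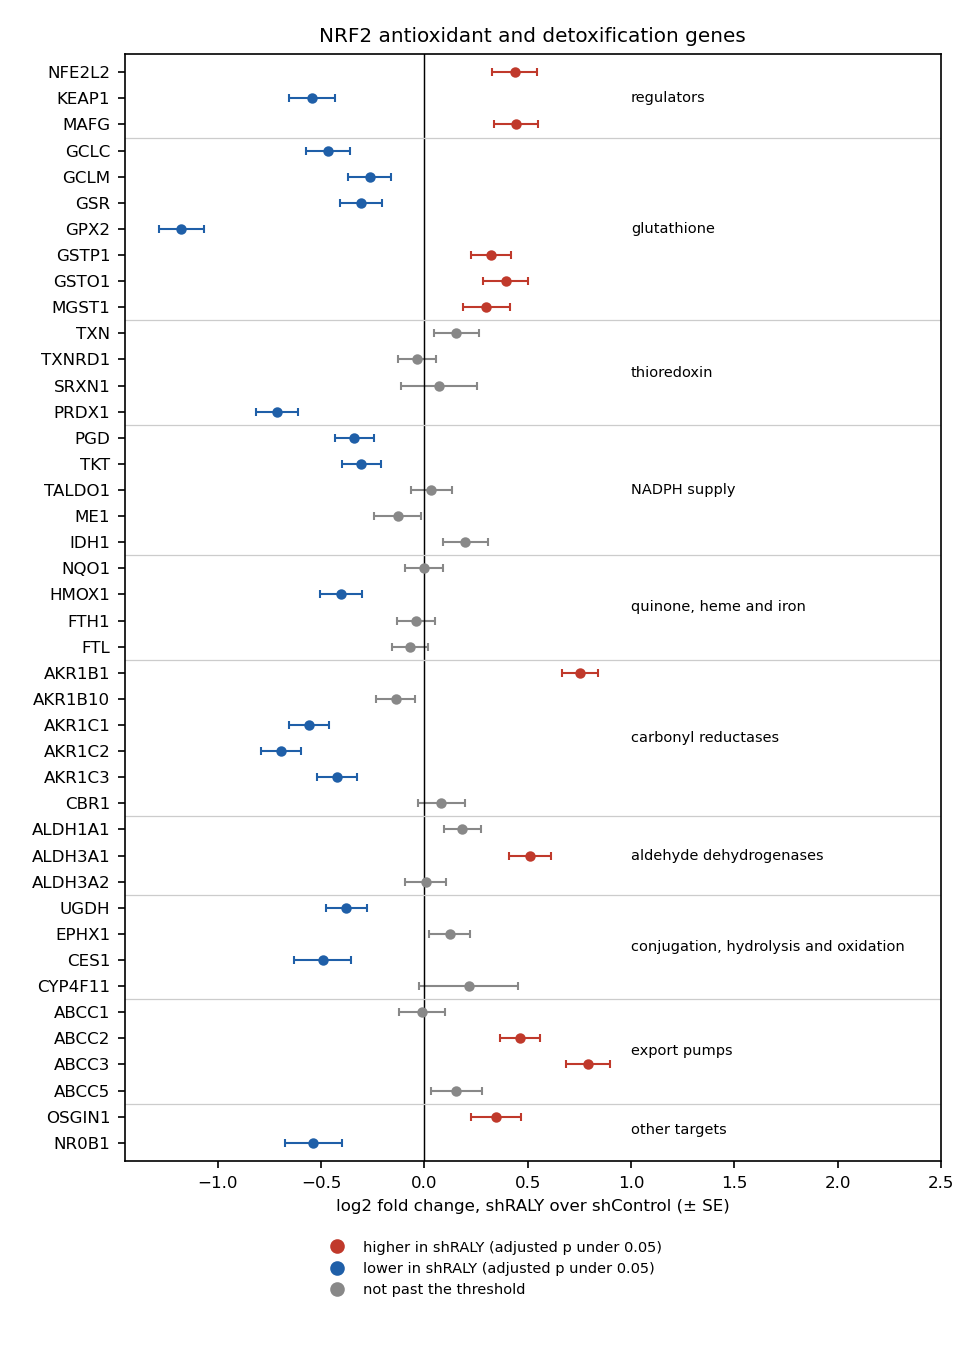
Log2 fold change of shRALY over shControl for the 42 genes, grouped by role, with bars of 1 standard error from edgeR; red points are higher, blue points lower and grey points not past the test. Points lie on both sides of 0, also within the glutathione genes and the carbonyl reductases, and run from GPX2 at -1.18 to ABCC3 at 0.79.

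Of the regulators, NFE2L2 and MAFG were higher and KEAP1 was lower. NFE2L2, the gene of NRF2, had 142 and 135 CPM in shRALY, against 108 and 96.4 CPM in shControl (log2 fold change 0.44, SE 0.11; edgeR adjusted p = 0.00263). KEAP1, the adaptor that presents NRF2 for destruction, had 73.3 and 78.8 CPM in shRALY, against 105 and 116 CPM in shControl (log2 fold change -0.54, SE 0.11; edgeR adjusted p = 0.000438). MAFG, a small MAF protein that binds DNA with NRF2, had 200.5 and 219.9 CPM in shRALY, against 147 and 162 CPM in shControl (log2 fold change 0.44, SE 0.11; edgeR adjusted p = 0.00187). The libraries of the 2 groups did not overlap for any of the 3 genes, as was so for 69.7% of all tested genes. Per length, NFE2L2 stood at 1.22 and 1.07 times the KEAP1 level in shRALY, against 0.645 and 0.521 times in shControl, in TPM. NFE2L2 overlaps other annotated genes over 20.9% of its exonic bases, and the counting of such reads is not given in the sources used here. The calls of NFE2L2 and KEAP1 were lost without shRALY replicate 1 (log2 0.40 at an edgeR adjusted p of 0.108; log2 -0.48 at an edgeR adjusted p of 0.0579) and that of MAFG without shRALY replicate 2 (log2 0.39 at an edgeR adjusted p of 0.12).

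All 7 glutathione genes passed, 4 lower and 3 higher, where the same test called 41.0% of all tested genes. GCLC, GCLM, GSR and GPX2 were lower, and GSTP1, GSTO1 and MGST1 were higher. GPX2, a glutathione peroxidase of epithelial cells, had 103 and 102 CPM in shRALY, against 217 and 248 CPM in shControl, a 2.26-fold fall (log2 fold change -1.18, SE 0.11; edgeR adjusted p = 8.16e-09). This was the largest change of the 42 genes, and its call held with each library left out. GCLC, the catalytic subunit of the enzyme that limits glutathione synthesis, had 158 and 156 CPM in shRALY, against 229.6 and 204 CPM in shControl (log2 fold change -0.47, SE 0.11; edgeR adjusted p = 0.0011). GCLM, the modifier subunit of that enzyme, had 229 and 225 CPM in shRALY, against 287 and 258 CPM in shControl (log2 fold change -0.27, SE 0.10; edgeR adjusted p = 0.0444). Per length, GCLM stood at 2.32 and 2.30 times the GCLC level in shRALY, against 2.00 and 2.02 times in shControl. GSR, which returns oxidised glutathione to its reduced form, had 285 and 284 CPM in shRALY, against 357 and 347 CPM in shControl (log2 fold change -0.31, SE 0.10; edgeR adjusted p = 0.0171).

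The 3 higher genes of this role encode transferases, which attach glutathione to other molecules or use it to reduce them. GSTP1 had 655 and 626 CPM in shRALY, against 512 and 514 CPM in shControl (log2 fold change 0.32, SE 0.10; edgeR adjusted p = 0.0109). GSTO1 had 96.8 and 96.9 CPM in shRALY, against 72.4 and 74.9 CPM in shControl (log2 fold change 0.39, SE 0.11; edgeR adjusted p = 0.00569). MGST1, which is bound to membranes, had 493 and 440.1 CPM in shRALY, against 419 and 339 CPM in shControl (log2 fold change 0.30, SE 0.11; edgeR adjusted p = 0.0349). The groups were apart for all 3, as for 69.7% of all tested genes. The gap was narrowest for MGST1, whose lower shRALY library was close to the higher shControl library. Without shRALY replicate 1 the calls of GCLC, GCLM, GSR, GSTP1, GSTO1 and MGST1 were lost (edgeR adjusted p of 0.0591, 0.324, 0.257, 0.246, 0.117 and 0.415), and without shRALY replicate 2 the same 6 calls were lost (edgeR adjusted p of 0.0717, 0.384, 0.267, 0.129, 0.116 and 0.103). GCLM was also lost without shControl replicate 1 (log2 -0.19 at an edgeR adjusted p of 0.0632), with RLE size factors (log2 -0.26 at an edgeR adjusted p of 0.0515), with no filter on low counts (log2 -0.26 at an edgeR adjusted p of 0.0647) and with DESeq2 (log2 -0.26, DESeq2 adjusted p = 0.0519), and MGST1 without shControl replicate 2 (log2 0.17 at an edgeR adjusted p of 0.121) and with library size alone (log2 0.25 at an edgeR adjusted p of 0.0859).

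Of the 4 thioredoxin genes, PRDX1 fell and the other 3 did not pass. PRDX1, a peroxiredoxin that removes hydrogen peroxide, had 402 and 393 CPM in shRALY, against 691 and 611 CPM in shControl, a 1.64-fold fall (log2 fold change -0.71, SE 0.10; edgeR adjusted p = 5.45e-06). Its call held with each library left out. PRDX1 shares 28.6% of its words of 50 bases with other genes, and MMACHC, on the opposite strand, covers 24.9% of its exonic bases, and the strand setting of the counts is not given in the sources used here. TXNRD1, thioredoxin reductase, had 1531 and 1532 CPM in shRALY, against 1563 and 1578 CPM in shControl (log2 fold change -0.04, SE 0.09; edgeR adjusted p = 0.791). TXN, thioredoxin itself, had 426 and 425 CPM in shRALY, against 423 and 343 CPM in shControl (log2 fold change 0.15, SE 0.11; edgeR adjusted p = 0.276). TXN passed without shControl replicate 1 (log2 0.31 at an edgeR adjusted p of 0.00272). SRXN1, sulfiredoxin, which repairs overoxidised peroxiredoxins, had 20.4 and 22.7 CPM in shRALY, against 15.2 and 25.8 CPM in shControl. The shControl libraries of SRXN1 lay on either side of both shRALY libraries, and its log2 fold change of 0.07 (edgeR adjusted p = 0.799) became -0.27 without shControl replicate 1 (edgeR adjusted p = 0.137) and 0.51 without shControl replicate 2 (edgeR adjusted p = 0.00918). SRXN1 also shares 84.7% of its words of 50 bases with another annotated gene, which overlaps 85.0% of its exonic bases.

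Of the 5 NADPH genes, 2 were lower and none higher, and 2 and 0 were also the counts at an unadjusted p under 0.05 and with DESeq2. Over all tested genes, 20.4% were called lower and 20.6% higher. PGD, an NADPH-forming enzyme of the pentose phosphate pathway, had 1005 and 978 CPM in shRALY, against 1217 and 1290.0 CPM in shControl (log2 fold change -0.34, SE 0.09; edgeR adjusted p = 0.00593). TKT, transketolase of the same pathway, had 1603 and 1581 CPM in shRALY, against 1839 and 2094 CPM in shControl (log2 fold change -0.30, SE 0.10; edgeR adjusted p = 0.0132). The spread between the shControl libraries of TKT exceeded that of its shRALY libraries, and the groups did not overlap. PGD lost its call without shRALY replicates 1 and 2 (edgeR adjusted p of 0.147 and 0.207), and so did TKT (0.208 and 0.243), which also lost it without shControl replicate 2 (edgeR adjusted p = 0.0623). TALDO1, transaldolase, was at 381 ± 9.59 CPM in shRALY and 372 ± 4.32 CPM in shControl (log2 0.03; edgeR adjusted p = 0.821). ME1, cytosolic malic enzyme, was at 142 ± 9.94 CPM in shRALY and 155 ± 20.99 CPM in shControl (log2 -0.13; edgeR adjusted p = 0.392). ME1 passed as lower without shControl replicate 2 (log2 -0.25 at an edgeR adjusted p of 0.0211) and changed sign without shControl replicate 1 (log2 0.01 at an edgeR adjusted p of 0.932). IDH1, cytosolic isocitrate dehydrogenase, was at 286 ± 12.99 CPM in shRALY and 249 ± 31.4 CPM in shControl (log2 0.20; edgeR adjusted p = 0.154), and passed without shControl replicate 1 (log2 0.33 at an edgeR adjusted p of 0.00151) and with a GC content and transcript length correction (log2 0.18 at an edgeR adjusted p of 0.0186).

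Of the 4 genes of quinone, heme and iron handling, HMOX1 fell and the other 3 did not pass. HMOX1, heme oxygenase 1, had 206 and 214 CPM in shRALY, against 271 and 285 CPM in shControl (log2 fold change -0.40, SE 0.10; edgeR adjusted p = 0.0029). HMOX1 did not pass when shRALY replicate 1 (log2 -0.37 at an edgeR adjusted p of 0.154) or 2 (log2 -0.42 at an edgeR adjusted p of 0.0929) was left out. NQO1, the quinone reductase often used to read NRF2 activity, had 1438 and 1354 CPM in shRALY, against 1413 and 1383 CPM in shControl (log2 fold change -0.0023, SE 0.09; edgeR adjusted p = 0.989). Its libraries overlapped, and a log2 fold change this near 0 took either sign with the scaling. The 95% interval of the NQO1 log2 fold change ran from -0.20 to 0.19. NQO1 shares 18.1% of its words of 50 bases with other genes, and an opposite-strand gene covers 17.7% of its exonic bases. FTL and FTH1 encode the light and heavy chains of ferritin, the iron store. FTL was at 7448 ± 586 CPM in shRALY and 7812 ± 316 CPM in shControl (log2 -0.07; edgeR adjusted p = 0.573). FTH1 was at 2172 ± 139 CPM in shRALY and 2231 ± 42.9 CPM in shControl (log2 -0.04; edgeR adjusted p = 0.779). FTH1 shares 40.4% of its words of 50 bases with other genes and overlaps BEST1 over 62.4% of its exonic bases. Summed with its annotated pseudogenes, FTH1 had a log2 fold change of -0.04 (edgeR adjusted p = 0.790). FTL shares 18.3% of its words, and with its pseudogenes summed it was at log2 -0.07 (edgeR adjusted p = 0.573).

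**Figure D2:**
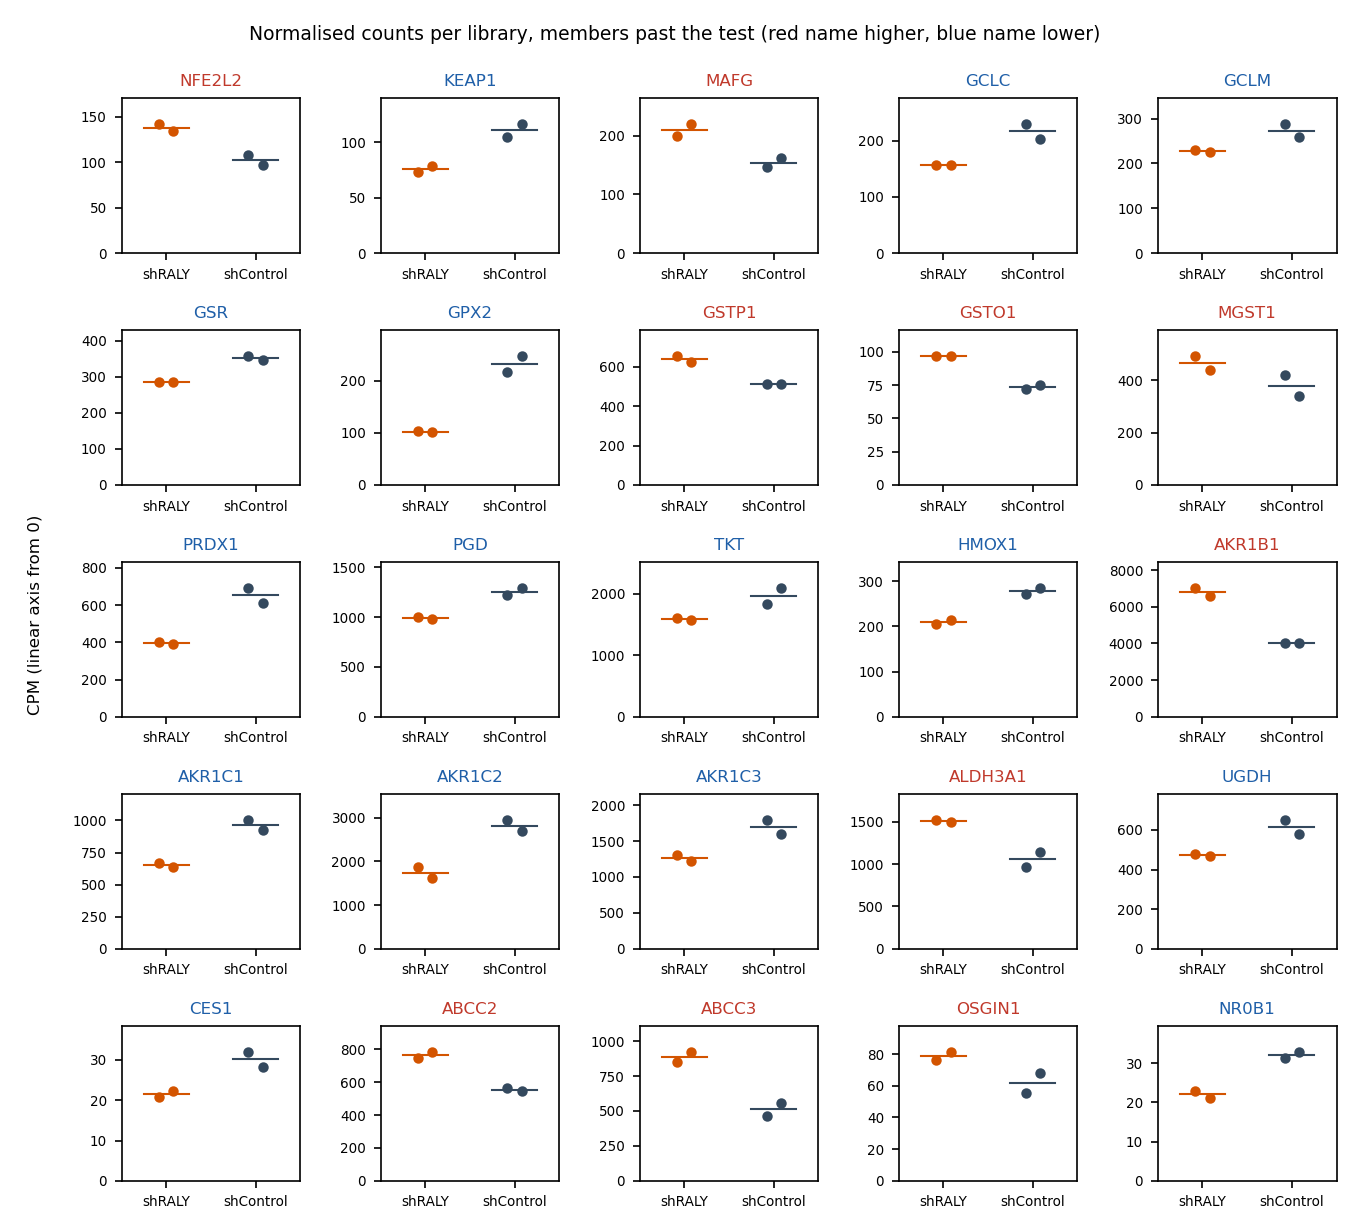
Normalised counts in CPM, on linear axes from 0, for the 25 genes past the test, with 1 point for each of the 2 shRALY and 2 shControl libraries and a line at the group mean. In every panel the shRALY points lie on one side of the shControl points. The panels hold only genes called by the test on these same libraries, and 69.7% of all tested genes were apart in this way.

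Among the carbonyl reductases, AKR1B1 rose and the 3 AKR1C genes fell. AKR1B1, aldose reductase, had 7018 and 6596 CPM in shRALY, against 4052 and 4017 CPM in shControl, a 1.69-fold rise (log2 fold change 0.75, SE 0.09; edgeR adjusted p = 2.68e-07). AKR1B10, its relative and a marker of NRF2 activity in lung cancer, had 2739 and 2593 CPM in shRALY, against 3145 and 2729.6 CPM in shControl (log2 fold change -0.14, SE 0.09; edgeR adjusted p = 0.256). The groups of AKR1B10 overlapped, and it passed as lower without shControl replicate 2 (log2 -0.22 at an edgeR adjusted p of 0.0317) and with a GC content and transcript length correction (log2 -0.20 at an edgeR adjusted p of 0.00535). The AKR1C enzymes reduce carbonyls of steroids, prostaglandins and lipid aldehydes. AKR1C2 had 1863 and 1625 CPM in shRALY, against 2949.9 and 2693 CPM in shControl (log2 fold change -0.69, SE 0.10; edgeR adjusted p = 4.06e-06). AKR1C1 had 666 and 641 CPM in shRALY, against 1003 and 922 CPM in shControl (log2 fold change -0.56, SE 0.10; edgeR adjusted p = 6.77e-05). AKR1C3, which forms active androgens, had 1308 and 1225 CPM in shRALY, against 1793 and 1599 CPM in shControl (log2 fold change -0.42, SE 0.10; edgeR adjusted p = 0.00119).

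The AKR1C genes lie in a cluster on chromosome 10 and share sequence, so the division of their counts is uncertain. AKR1C2 shares 52.2% of its words of 50 bases with other genes, AKR1C1 28.7% and AKR1C3 12.1%. The summed counts fell too: those of AKR1C1, AKR1C2, AKR1C3 and AKR1C4 came to 3838 and 3492 CPM in shRALY, against 5748 and 5214 CPM in shControl (log2 fold change -0.58, SE 0.09; edgeR adjusted p = 1.9e-05). With a library left out, AKR1C3 alone of the 3 lost its call, without shRALY replicate 2 (log2 -0.36 at an edgeR adjusted p of 0.12). CBR1, a carbonyl reductase of another family, was at 81.1 ± 0.472 CPM in shRALY and 76.6 ± 7.24 CPM in shControl (log2 0.08; edgeR adjusted p = 0.598). CBR1 shares 22.1% of its sequence words with an opposite-strand gene.

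Of the aldehyde dehydrogenases, ALDH3A1 rose. ALDH3A1, which oxidises aromatic and lipid aldehydes, had 1519 and 1491 CPM in shRALY, against 966 and 1146 CPM in shControl (log2 fold change 0.51, SE 0.10; edgeR adjusted p = 0.000252), and its call held with each library left out. ALDH1A1, which makes retinoic acid and is among the most abundant mRNAs of these cells, had 6224 and 6379 CPM in shRALY, against 5793 and 5297 CPM in shControl (log2 fold change 0.18, SE 0.09; edgeR adjusted p = 0.0973). The groups of ALDH1A1 were apart although it did not pass. It passed without shControl replicate 1 (log2 0.25 at an edgeR adjusted p of 0.0211) and with a GC content and transcript length correction (log2 0.16 at an edgeR adjusted p of 0.0257). The ALDH1A1 count of shControl replicate 1 was read from a line with a space where the other lines have a tab. ALDH3A2, of the endoplasmic reticulum, was at 305 ± 3.30 CPM in shRALY and 304 ± 6.05 CPM in shControl (log2 0.01; edgeR adjusted p = 0.97).

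Of the 4 genes of conjugation, hydrolysis and oxidation, UGDH and CES1 fell. UGDH, which makes the sugar donor for glucuronidation, had 479 and 468 CPM in shRALY, against 649.7 and 579.9 CPM in shControl (log2 fold change -0.38, SE 0.10; edgeR adjusted p = 0.00432). CES1, a carboxylesterase, had 20.7 and 22.2 CPM in shRALY, against 31.99 and 28.4 CPM in shControl (log2 fold change -0.49, SE 0.14; edgeR adjusted p = 0.00697). Both calls were lost without shRALY replicate 1 (edgeR adjusted p of 0.117 and 0.145) and without shRALY replicate 2 (0.16 and 0.0653). CES1 shares 17.3% of its words of 50 bases with other genes. EPHX1, microsomal epoxide hydrolase, was at 331 ± 11.6 CPM in shRALY and 304 ± 11.2 CPM in shControl (log2 0.12; edgeR adjusted p = 0.359). CYP4F11, a fatty acid hydroxylase and the least abundant of the 42 genes, was at 7.48 ± 2.65 CPM in shRALY and 6.42 ± 0.633 CPM in shControl (log2 0.21; edgeR adjusted p = 0.515).

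Of the 4 export pumps, 2 rose and none fell, and 2 and 0 were also the counts at an unadjusted p under 0.05 and with DESeq2. Over all tested genes, 20.6% were called higher and 20.4% lower. ABCC3 (MRP3), which exports glucuronide and glutathione conjugates, had 854 and 923 CPM in shRALY, against 466 and 561 CPM in shControl, a 1.73-fold rise and the largest of the 42 genes (log2 fold change 0.79, SE 0.11; edgeR adjusted p = 2.22e-06). ABCC2 (MRP2), which exports similar conjugates, had 747 and 784 CPM in shRALY, against 562 and 549.1 CPM in shControl (log2 fold change 0.46, SE 0.10; edgeR adjusted p = 0.000511). The call of ABCC3 held with each library left out, and that of ABCC2 was lost without shRALY replicate 2 (log2 0.44 at an edgeR adjusted p of 0.0548). ABCC1 (MRP1) had 550.2 and 629.9 CPM in shRALY, against 528 and 662 CPM in shControl (log2 fold change -0.01, SE 0.11; edgeR adjusted p = 0.948). In both groups replicate 2 was the higher library for ABCC1, and leaving out a library moved its log2 fold change between -0.17 and 0.17. ABCC5 was at 44.7 ± 0.462 CPM in shRALY and 40.2 ± 4.70 CPM in shControl (log2 0.16; edgeR adjusted p = 0.345), and passed without shControl replicate 2 (log2 0.29 at an edgeR adjusted p of 0.0357).

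The last 2 genes went opposite ways. OSGIN1, a growth inhibitor induced by oxidative stress, had 76.00 and 81.4 CPM in shRALY, against 55.4 and 68.3 CPM in shControl (log2 fold change 0.35, SE 0.12; edgeR adjusted p = 0.0247). NR0B1, a nuclear receptor expressed in cancer cells with mutated KEAP1, had 23.01 and 21.2 CPM in shRALY, against 31.3 and 32.9 CPM in shControl (log2 fold change -0.54, SE 0.14; edgeR adjusted p = 0.00295). OSGIN1 lost its call without shControl replicate 1 and without shRALY replicates 1 and 2 (edgeR adjusted p of 0.0937, 0.12 and 0.267) and with library size alone (log2 0.29 at an edgeR adjusted p of 0.0562). NR0B1 lost its call without shRALY replicate 2 (log2 -0.47 at an edgeR adjusted p of 0.106).

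Calls that held in every fit with 1 library left out were those of AKR1B1, ALDH3A1 and ABCC3 among the 10 higher genes, and of GPX2, PRDX1, AKR1C1 and AKR1C2 among the 15 lower genes. The lowest numbers of called genes, among the members and among all tested genes, came without an shRALY library. Whether the members kept their calls more or less often than other genes was not tested.

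Many of the genes were very abundant. Per length, in TPM (counts divided by exonic length and scaled to a fixed total), 13 of the 42 were among the 100 most abundant genes in shControl and 31 among the 1000 most abundant. Together they made up 6.41% and 5.99% of all TPM in shRALY, against 6.89% and 6.68% in shControl. On scales less moved by composition the groups overlapped: the members took 4.43% and 4.18% of all counts in shRALY, against 4.46% and 4.28% in shControl, and summed to 44897 and 42998 CPM in shRALY, against 43747 and 42120 CPM in shControl. FTL led with 26760.0 ± 2125 TPM in shRALY and 30668 ± 737 TPM in shControl. ALDH1A1 came next with 6978 ± 116 TPM in shRALY and 6707 ± 313 TPM in shControl, and AKR1B10 had 4823 ± 190.1 TPM in shRALY and 5802 ± 485 TPM in shControl. AKR1B1 had 5867 ± 261 TPM in shRALY and 3801 ± 39.1 TPM in shControl, so in shRALY it stood above AKR1B10 and in shControl below it. In shControl, AKR1B1 and FTH1 were next to each other and their libraries overlapped, as did those of AKR1C2, NQO1, PRDX1 and PGD in order. NQO1 had 1353 ± 58.3 TPM in shRALY and 1481 ± 2.07 TPM in shControl. GPX2 dropped furthest in the order, to place 25 in shRALY against place 16 in shControl. At the low end, ABCC5 and CYP4F11 kept the last places, with 5.86 ± 2.07 TPM in shRALY and 5.50 ± 0.632 TPM in shControl for CYP4F11. The median of all tested genes was -0.14 (log2 fold change, shRALY over shControl) on the TPM scale, which is not adjusted for composition, so TPM serves here for comparing genes within a library.

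**Figure D3:**
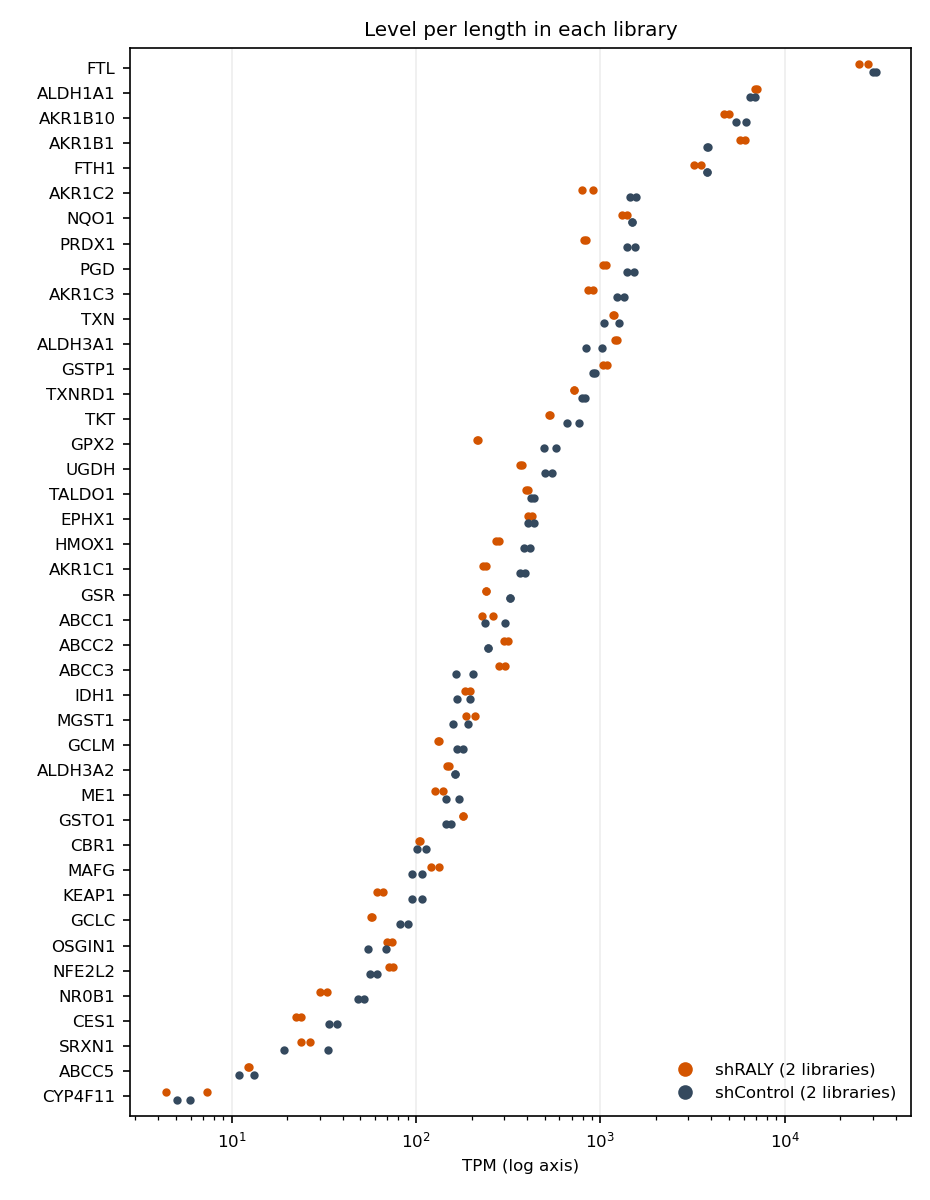
Level per exonic length in TPM, on a log axis, for the 42 genes in order of the shControl mean, with 1 point for each of the 2 shRALY libraries (orange) and 2 shControl libraries (dark). FTL is the highest, at 25257 TPM or more in every library, and CYP4F11 the lowest, at 7.32 TPM or less.

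Of the other genes that control NRF2, several had larger log2 fold changes than NFE2L2 and KEAP1, a difference that was not tested. Of 15 listed control genes, 14 were tested, 6 were higher and 2 lower, with a median log2 fold change of 0.13. Of all tested genes, 20.6% were called higher and 20.4% lower. MAFF, another small MAF gene, had 23.2 and 25.01 CPM in shRALY, against 3.63 and 3.46 CPM in shControl, a 6.78-fold rise (log2 fold change 2.76, SE 0.19; edgeR adjusted p = 4.25e-11). NFE2L3, a relative of NRF2, had 71.8 and 79.9 CPM in shRALY, against 24.96 and 24.5 CPM in shControl (log2 fold change 1.62, SE 0.12; edgeR adjusted p = 2.57e-10). SYVN1, an ER ubiquitin ligase that can also act on NRF2, had 171 and 180.0 CPM in shRALY, against 47.4 and 60.8 CPM in shControl (log2 fold change 1.70, SE 0.12; edgeR adjusted p = 1.24e-10). EIF2AK3, the ER stress kinase PERK, which can phosphorylate NRF2, had 61.9 and 61.5 CPM in shRALY, against 23.1 and 25.9 CPM in shControl (log2 fold change 1.33, SE 0.12; edgeR adjusted p = 8.94e-09). BACH1, a repressor that competes with NRF2 at its elements, was the fifth of the higher genes by p, at 52.02 ± 0.674 CPM in shRALY and 19.9 ± 2.09 CPM in shControl (log2 1.38; edgeR adjusted p = 1.14e-08). MAFK was higher too, at 95.4 ± 1.64 CPM in shRALY and 66.1 ± 8.54 CPM in shControl (log2 0.53; edgeR adjusted p = 0.000833), and shares 22.9% of its sequence words with other genes. CUL3, the scaffold of the KEAP1 ligase, was lower, at 80.98 ± 4.81 CPM in shRALY and 110.4 ± 10.2 CPM in shControl (log2 -0.45; edgeR adjusted p = 0.00283). PGAM5, a mitochondrial phosphatase that binds KEAP1, was the other lower gene, at 61.3 ± 4.10 CPM in shRALY and 99.96 ± 12.7 CPM in shControl (log2 -0.70; edgeR adjusted p = 4.6e-05). BACH1, MAFK, CUL3 and PGAM5 were named after their values were seen.

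Other known NRF2 targets also moved both ways. Of 27 listed, 25 were tested, 8 were higher and 2 lower, with a median log2 fold change of 0.13. The shares over all tested genes were 20.6% higher and 20.4% lower. GLRX, glutaredoxin, had 88.5 and 93.6 CPM in shRALY, against 32.9 and 29.4 CPM in shControl, a 2.92-fold rise (log2 fold change 1.55, SE 0.12; edgeR adjusted p = 3.63e-10). SQSTM1, the autophagy receptor p62, which binds KEAP1, had 1448 and 1486 CPM in shRALY, against 728 and 801 CPM in shControl (log2 fold change 0.94, SE 0.10; edgeR adjusted p = 4.24e-08). Genes of the opposite strand cover 22.0% of the exonic bases of SQSTM1, which shares 25.7% of its sequence words with MRNIP. NMRAL2P, a transcribed pseudogene, had 35.6 and 41.3 CPM in shRALY, against 18.2 and 19.5 CPM in shControl (log2 fold change 1.03, SE 0.14; edgeR adjusted p = 2.69e-06). SLC7A11, the cystine importer that feeds glutathione synthesis, had 229 and 226 CPM in shRALY, against 388 and 326 CPM in shControl (log2 fold change -0.65, SE 0.11; edgeR adjusted p = 3.76e-05), and so moved the same way as GCLC and GCLM. GSS, which completes glutathione synthesis and was named after its values were seen, was higher at 94.3 ± 2.94 CPM in shRALY and 69.8 ± 6.36 CPM in shControl (log2 0.43; edgeR adjusted p = 0.00366). The other higher genes were BLVRA and BLVRB, MGST3 and AKR1B15, at log2 0.47, 0.50, 0.38 and 0.80, and NQO2 was the other lower gene at log2 -0.34 (edgeR adjusted p = 0.0278). NQO2 did not pass with DESeq2 (adjusted p = 0.0584). All 5 were named after their values were seen.

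Peroxide and superoxide enzymes outside the NRF2 list changed most at SOD2 and GPX1. Of 20 listed, 18 were tested, 5 were higher and 2 lower, with a median log2 fold change of 0.02. The shares over all tested genes were 20.6% higher and 20.4% lower. SOD2, mitochondrial superoxide dismutase and a known NF-kB target, had 505 and 557 CPM in shRALY, against 73.5 and 61.2 CPM in shControl, a 7.88-fold rise (log2 fold change 2.98, SE 0.12; edgeR adjusted p = 4.59e-15). GPX1, the cytosolic glutathione peroxidase, had 489 and 490.4 CPM in shRALY, against 169 and 205 CPM in shControl (log2 fold change 1.39, SE 0.11; edgeR adjusted p = 5.83e-10), a rise beside the fall of GPX2. GPX1 shares 21.5% of its sequence words, nearly all with the pseudogene GPX1P1, and the annotation used here classes it as a polymorphic pseudogene. Per length, GPX1 stood at 1081 ± 1.16 TPM in shRALY and 451 ± 69.3 TPM in shControl. GPX2 stood at 216 ± 2.02 TPM in shRALY and 534 ± 59.4 TPM in shControl, so GPX1 was the higher of the pair in shRALY and the lower in shControl. PRDX5, a peroxiredoxin of mitochondria and peroxisomes, had 199 and 209 CPM in shRALY, against 97.5 and 115 CPM in shControl (log2 fold change 0.95, SE 0.11; edgeR adjusted p = 3.46e-07). TXN2, mitochondrial thioredoxin, had 34.98 and 31.98 CPM in shRALY, against 45.6 and 51.1 CPM in shControl (log2 fold change -0.53, SE 0.12; edgeR adjusted p = 0.00159). TXN2 did not pass when shRALY replicate 2 was left out (log2 -0.46 at an edgeR adjusted p of 0.0955). The remaining higher genes were GLRX3 (log2 0.38, edgeR adjusted p = 0.0127) and PRDX6 (log2 0.26, edgeR adjusted p = 0.0469). SOD1 was lower (log2 -0.30, edgeR adjusted p = 0.0284). These 3, and KRT19, were likewise named after their values were seen. The calls of all genes so named were not followed with a library left out.

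**Figure D4:**
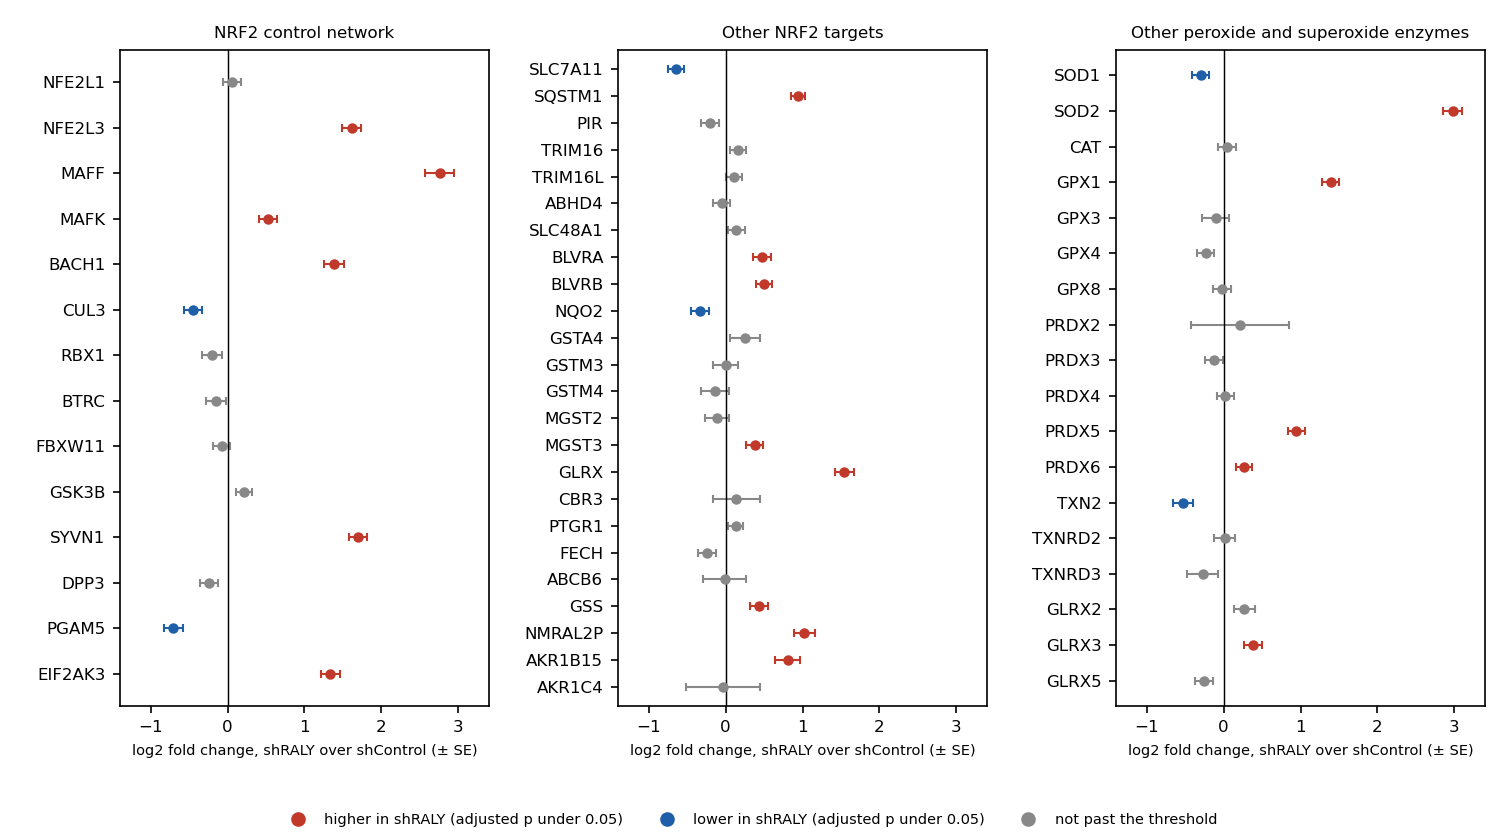
Log2 fold change of shRALY over shControl, with bars of 1 standard error, for the tested genes, 1 of the other NRF2 targets left out, of 3 further lists: NRF2 control genes, other NRF2 targets and other peroxide and superoxide enzymes; red is higher, blue lower and grey not past the test. The largest rises are SOD2 at 2.98 and MAFF at 2.76.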

How the data were processed

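Polyadenylated RNA of 4 A549 libraries was sequenced (Illumina TruSeq kit, per the labels' protocols). The authors deposited 1 table of unnormalised counts by Ensembl gene for each library. The submitters' processing notes name DESeq2 1.20.0, HISAT2 2.0.5 and featureCounts 1.5.0-p3, and build hg38. Annotation release, strand setting and treatment of multiply mapped reads were not given in the sources used here. All 58735 identifiers matched GENCODE 29; SOD2 has 2 identifiers there, and the one with more exonic bases was used.

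Genes were kept by filterByExpr (minimum count 10, total 15; 15912 genes), scaled by TMM and tested with edgeR 4.0.16 (quasi-likelihood, robust) in R 4.3.3, shRALY over shControl, 2 residual degrees of freedom, adjustment over all tested genes, threshold 0.05; the code was tested on simulated data. Standard errors were derived from F (effect size over its root), and a 95% interval uses the t quantile at the test's own degrees of freedom. These were 21.9 for each member, more than the 2 residual ones, because edgeR pools the spread over genes. CPM use TMM-scaled library sizes; TPM use union exonic lengths. Shared sequence is the percentage of a gene's 50-base words (its longest transcript) that another gene also holds. Alternatives, DESeq2 1.42.0 among them, are in the closing section.

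The members, lists and tests were chosen with earlier results of these data known. Named genes are all members, RALY, up to 4 called genes of each further list by smallest adjusted p, and SLC7A11; 1 further gene of the other NRF2 targets is counted but not reported here. Replicate numbers in the titles are not stated to pair libraries, so no block was used.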

Additional observations from a re-analysis of the deposited data

How the results depend on the processing

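The member counts (10 higher, 15 lower) stayed within 1.5 times under RLE size factors, library size alone, DESeq2, both other filters, no robust estimation, protein-coding genes alone and a GC content and transcript length correction. A test against a 1.2-fold change kept 4 higher and 7 lower members. The share of all tested genes past that test is not given here, so these counts show nothing particular to the members. With 1 library left out, where the lone library is assumed to vary like the other group, the members ranged from 4 to 12 higher and 5 to 16 lower, and all genes from 2040 to 3559 higher and 1897 to 3499 lower; the lowest counts came without an shRALY library, and the fits without an shControl library called more genes than all 4 libraries did. The cause was not tested.

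Signs changed among members that did not pass, and in no called gene that the text tests again. NQO1 was at 0.00764 with RLE size factors, 0.00764 with DESeq2, 0.000774 without a filter, 0.00786 with the 10 CPM filter and 0.000624 with protein-coding genes alone, and from -0.0393 to 0.0507 with a library left out. With library size alone TALDO1 was at -0.0219 and ALDH3A2 at -0.0491. With the GC content and transcript length correction TALDO1 was at -0.0297 and ABCC1 at 0.0232. With a library left out, log2 values ranged from -0.268 to 0.512 for SRXN1, -0.245 to 0.0116 for ME1, -0.171 to 0.175 for ABCC1, -0.0981 to 0.036 for FTH1, -0.145 to 0.0197 for FTL and -0.185 to 0.55 for CYP4F11. Causes were not tested.

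With the replicate number as a block, 11 members were higher and 15 lower, with 3639 and 3619 genes in all; ALDH1A1 was the member that then passed (log2 0.19, edgeR adjusted p = 0.0261). Deviations of same-numbered libraries from their group means correlated at r = 0.25 across 9764 genes, from 2 pairs, and the labels do not say that the numbers mark anything shared. The smallest log2 change among called members was that of GCLM, at -0.27.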

Other observations

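PRDX2, a peroxiredoxin that many cells express strongly, was near the limit of detection, at 0.632 ± 0.0293 CPM in shRALY and 0.549 ± 0.303 CPM in shControl, while PRDX1, PRDX3, PRDX4, PRDX5 and PRDX6 each had a mean above 100 CPM in both groups. PRDX2 overlaps another annotated gene over 14.1% of its exonic bases, and whether the counting moved its reads was not tested. UGT1A1 and UGT1A6, glucuronosyltransferase genes and known NRF2 targets, were too low to test. UGT1A1 was at 0.367 ± 0.173 CPM in shRALY and 0.896 ± 0.477 CPM in shControl. UGT1A6 was at 0.194 ± 0.188 CPM in shRALY and 0.581 ± 0.506 CPM in shControl. The UGT1A genes share exons, and the counting of such reads is not given in the sources used here. BACH2, SOD3 and GPX7 were also too low to test. The ratio of ferritin chains per length was close between groups, with FTL at 8.01 and 7.84 times FTH1 in shRALY, against 8.22 and 7.97 times in shControl.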
